A study of Mus musculus with 7 samples.

Results

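Chaperones and genes of the ER stress response were followed in neurons isolated from mouse brain. The 32 genes were chosen by name, with earlier results of these data known, and all 32 were found among the 46333 genes of the count files. They were 15 chaperones and folding enzymes of the endoplasmic reticulum (ER), 7 sensors, transcription factors and targets of the unfolded protein response (UPR), 8 cytosolic chaperones and the 2 subunits of the mitochondrial chaperonin. All 32 had enough counts to be tested, and for Ddit3, which was listed on 2 rows with identical counts, the first row was used.

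The 7 libraries came from adult female il4ra fl/fl mice, an allele that both genotypes share and in which exons of the gene for the interleukin-4 receptor alpha chain are flanked by sites for Cre recombinase. The 3 cre+ libraries carried Syn cre, a Cre driven by the neuronal synapsin 1 promoter, and the 4 cre- libraries came from littermates without it. The comparison asks how transcripts of the isolates differ with loss of the receptor from neurons. In this design that loss comes together with the presence of Cre. No agent was given. The study's methods put the age at 10 to 15 weeks, while a legend on this experiment puts it at 12 to 16 weeks. Whole brains were dissociated with enzymes in a heated device, and microglia, oligodendrocytes and astrocytes were removed with antibodies on magnetic beads. The methods list no antibody against endothelial cells for this removal, and the purity of the isolates was checked by flow cytometry, with a stain for endothelial cells among others. Poly(A) RNA was sequenced as paired reads, with totals of 68213223 to 94376841 counts per library.

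The ER folds secreted and membrane proteins. Its Hsp70, called BiP, its Hsp90, called Grp94, and their J-domain cofactors hold unfolded chains, the lectin chaperones calnexin and calreticulin hold glycoproteins, and protein disulfide isomerases form the disulfide bonds. When unfolded protein accumulates, the sensors Ire1, Perk and Atf6 start the UPR, which raises the transcription of these chaperones, slows translation through Perk and, through Chop, can lead to cell death. The cytosol has a separate heat shock response with its own Hsp70, Hsp90 and small heat shock proteins, and heating or dissociating tissue is known to induce it.

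The promoters of ER chaperones are known for the ER stress element, the letters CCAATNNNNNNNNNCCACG, which is bound by Atf6 together with NF-Y. It was searched on both strands of the 300 bases before the start of the canonical GENCODE M39 transcript, on GRCm39, of 21770 protein-coding genes, and 25 of these promoters (0.115%) held it. Among the 32 genes 7 held it, all of them ER chaperones. These sites are shown because they are an element that these 7 members share outside their transcripts. Capitals mark the element, read in the direction of the gene, so that a site on the reverse strand starts with CGTGG. The 5 bases on each side are in lower case.
Hspa5, chr2:34662032-34662060, plus strand: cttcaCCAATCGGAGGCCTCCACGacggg
Hsp90b1, chr10:86541497-86541525, minus strand: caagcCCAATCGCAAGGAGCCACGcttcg
Hsp90b1, chr10:86541392-86541420, minus strand: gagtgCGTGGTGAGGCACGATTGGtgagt
Dnajc3, chr14:119175234-119175262, plus strand: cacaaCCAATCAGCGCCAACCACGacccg
Creld2, chr15:88703718-88703746, plus strand: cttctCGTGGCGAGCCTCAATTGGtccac
Calr, chr8:85573699-85573727, minus strand: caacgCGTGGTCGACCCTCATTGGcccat
Canx, chr11:50216622-50216650, minus strand: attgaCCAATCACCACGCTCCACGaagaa
Pdia6, chr12:17316487-17316515, plus strand: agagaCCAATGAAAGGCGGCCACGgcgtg

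The Hspa5 site lay 67 to 49 bases before the transcript start, and that of Dnajc3 lay 106 to 88 bases before it. Hsp90b1 held a pair of sites, in opposite orientation, of which the nearer ended 19 bases before the start. The UPR element TGACGTGG was in 0.625% of the promoters and, of the members, in that of Hyou1. The CARE element TGATGNAAT, the site of Atf4 with a partner, was in 0.946% and, of the members, in that of Ddit3. The heat shock element, searched as GAANNTTCNNGAA and as TTCNNGAANNTTC, was in 0.482%. Among the members it was found in the promoters of Hspe1 and Hspd1, which lie head to head on chromosome 1 and share 1 site. Their sites are shown because they are the elements of the other stress pathways found in the members.
Hyou1, UPR element, chr9:44290653-44290670, plus strand: aaccgTGACGTGGcccaa
Ddit3, CARE element on the reverse strand, chr10:127126355-127126373, plus strand: caaacATTGCATCAtcccc
Hspe1, heat shock element on both strands, chr1:55127213-55127240, plus strand: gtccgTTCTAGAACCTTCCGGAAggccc
A match is a run of letters and was not tested for binding, and where a promoter held no match, only these letters are missing from this window.

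No member passed the main test of genotype. With the quasi-likelihood test of edgeR and Benjamini-Hochberg adjustment over 21542 genes, 0 genes (0%) had an adjusted p below 0.05, and the lowest adjusted p of 0.0939, which 349 genes shared, included Dnajc3. At an unadjusted p below 0.05, 12 members were higher in cre+ and 0 were lower, where 10.2% of all tested genes were higher and 9.75% lower. With libraries scaled by their totals alone, 6 members were higher at that limit (Hspa5, Dnajc3, Pdia3, Pdia4, Herpud1 and Hspb1) and 0 lower, beside 5.5% and 15.8% of all genes. The test used in the study, DESeq2, gave 1990 calls at an adjusted p below 0.05, and limma-voom gave 0. DESeq2 called 6 members higher in cre+ (Hspa5, Dnajc3, Pdia3, Pdia4, P4hb and Herpud1) and 0 lower, beside 6.7% of 16345 genes higher and 5.48% lower. Every call was lost in at least 1 run that left out a library, except that of Dnajc3, which was kept in all 7. The number of members called fell to 3, 2 and 3 without cre+ replicates 1, 2 and 3, was 8 and 5 without cre- replicates 1 and 4, and fell to 1 without cre- replicate 2 and to 1 without cre- replicate 3. The calls over all genes moved in the same runs, from 1095 higher to 591, 645 and 940 without cre+ replicates 1, 2 and 3 and to 935, 407, 545 and 1163 without cre- replicates 1 to 4.

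By direction, 29 of the 32 members had a positive log2 fold change (cre+ minus cre-, as in all fold changes here), against 46% of all tested genes. Their median was 0.25, while that of all tested genes was -0.04, with an interquartile range of -0.44 to 0.24. The 3 members below 0 were Hsph1, Hsp90aa1 and Ddit3. In 13 members all cre+ libraries lay above all cre- libraries and in 0 all lay below, where 8.94% and 9.72% of all tested genes did so. The median log2 fold change was 0.33 for the 15 ER chaperones, 0.22 for the UPR genes, 0.22 for the cytosolic chaperones and 0.18 for the chaperonin. This order depended on single libraries, since without cre- replicate 3 the cytosolic median (0.33) was above the ER median (0.30). With scaling by library totals the median was 0.14 for all members, 0.21 for the ER chaperones and 0.10 for the cytosolic ones, where that of all genes was -0.16.

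**Figure D1:**
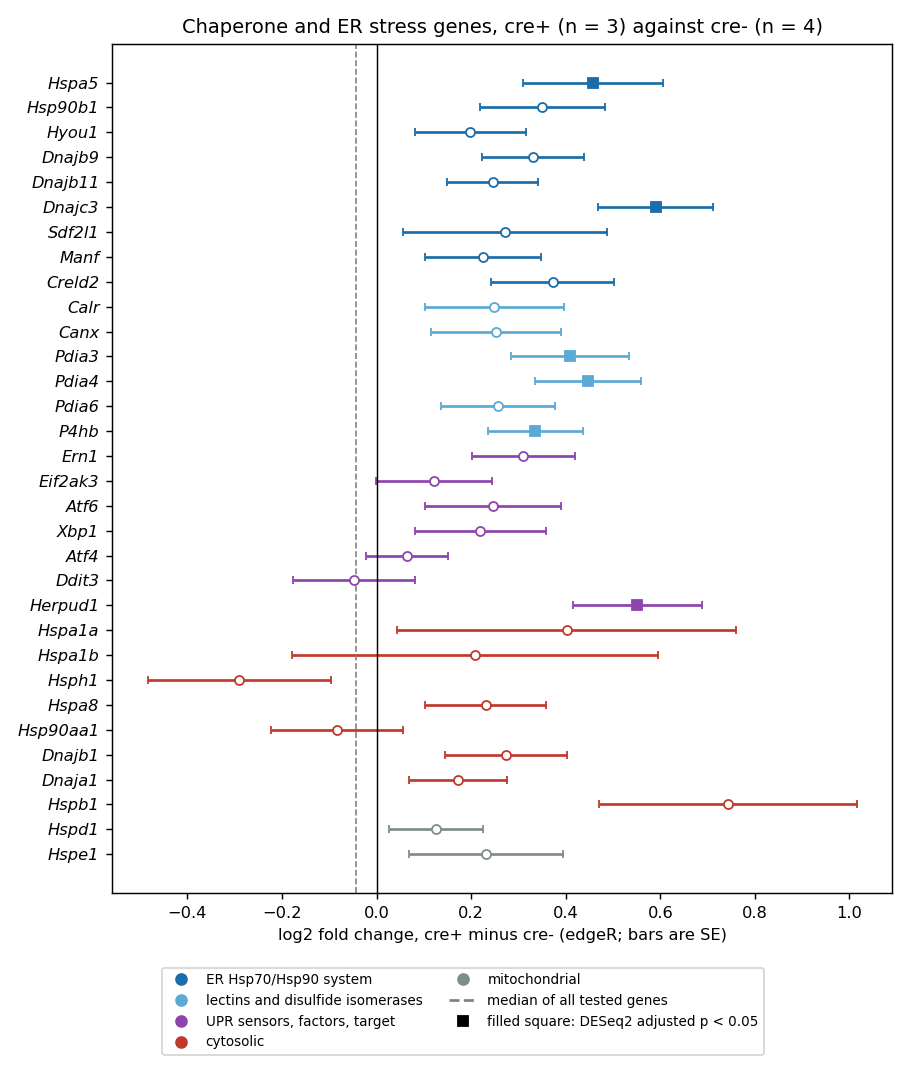
Log2 fold change of each of the 32 members (x axis, cre+ minus cre-, edgeR, bars are SE over 3 and 4 libraries), coloured by role, with the median of all tested genes as a dashed line. All 15 ER chaperones lie to the right of 0, between 0.20 and 0.59, whereas the 8 cytosolic chaperones spread from -0.29 to 0.74; filled squares are the 6 genes that DESeq2 called.

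The Hsp70 and Hsp90 system of the ER was higher by a median of 0.33 on the log2 scale, and all 9 of its members had positive values. Hspa5 encodes BiP, the central chaperone of the ER and the gene most used as a readout of the UPR. It stood at 344, 334 and 328 CPM (library-scaled counts, here with TMM factors) in cre+ replicates 1 to 3 and at 301, 192, 252 and 231 CPM in cre- replicates 1 to 4. Its cre+ libraries were close to each other and above every cre- library, of which replicate 1 came nearest and replicate 2 was lowest. The log2 fold change was 0.46 ± 0.15 (SE), a 1.37-fold difference (adjusted p 0.154 by edgeR and 0.0471 by DESeq2). The exons of Hspa5 (chromosome 2, 34661982 to 34667559, plus strand) share 26.5% of their bases with Rabepk on the opposite strand, and no source used here says whether counting used strand.

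Dnajc3, which encodes p58IPK, a J-domain partner of BiP that also restrains Perk, had the largest fold change of the ER members. Its values were 127, 154 and 135 CPM in cre+ and 101, 85.8, 79.3 and 102 CPM in cre-. The gap between the highest cre- and the lowest cre+ library was wider than the range within cre-. The log2 fold change of Dnajc3 (chromosome 14, 119175388 to 119219109, plus strand) was 0.59 ± 0.12, or 1.51-fold (adjusted p 0.0939 by edgeR and 0.00250 by DESeq2). No exon of its canonical transcript shares a base with a canonical exon of another gene.

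Dnajb9 encodes ERdj4, a J-domain cofactor that keeps Ire1 silent. It was at 53.4, 61.7 and 47.6 CPM in cre+ and at 43.9, 44.1, 40.8 and 43.6 CPM in cre-. The genotypes did not overlap, and the spread was larger among the cre+ libraries (SD 7.12) than among the cre- libraries (SD 1.55). The log2 fold change was 0.33 ± 0.11 (adjusted p 0.157 by edgeR and 0.0695 by DESeq2). Creld2, an ER-resident disulfide isomerase-like protein, had a similar shape, with 40.8, 28.8 and 31.6 CPM in cre+ and 25.8 to 26.9 CPM in cre-, a log2 fold change of 0.37 ± 0.13 (adjusted p 0.178 by edgeR).

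The other 5 genes of the system pointed the same way with smaller changes relative to their errors. Hsp90b1, which encodes Grp94, went from 359 ± 53.0 CPM (SD, n = 4) in cre- to 458 ± 17.9 CPM (SD, n = 3) in cre+, without overlap. Dnajb11, the cofactor ERdj3, went from 71.7 ± 6.28 to 85.0 ± 1.04 CPM, also without overlap. Manf, a secreted ER stress protein that binds BiP, was at 47.8 ± 5.89 and 55.9 ± 4.37 CPM, and its lowest cre+ library (51.9 CPM) was barely above its highest cre- library (51.3 CPM). Hyou1, the large Hsp70 relative Grp170 that acts as a nucleotide exchange factor for BiP, overlapped between the genotypes at 93.7 to 119 CPM in cre- and 105 to 129 CPM in cre+. Sdf2l1, a partner of the ERdj3 and BiP complex, overlapped because cre- replicate 1 (15.7 CPM) was above all cre+ libraries. Adjusted p-values of these 5 ran from 0.197 to 0.528 by edgeR, and DESeq2 called 0 of them.

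The lectin chaperones and disulfide isomerases had a median of 0.30, and all 6 values were positive. Pdia4 encodes ERp72, a disulfide isomerase with several active domains. It was at 96.3, 114 and 93.4 CPM in cre+ and 78.6, 64.5, 74.98 and 78.7 CPM in cre-, with no overlap. The log2 fold change was 0.45 ± 0.11, or 1.36-fold (adjusted p 0.100 by edgeR and 0.0142 by DESeq2).

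Pdia3 encodes ERp57, the isomerase that works with calnexin and calreticulin on glycoproteins. The cre+ libraries held 319, 322 and 317 CPM and the cre- libraries 271, 194, 244 and 254 CPM. The cre+ values lay within a few CPM of each other (SD 2.63), and the cre- values spread over a much wider range (SD 33.0). Its log2 fold change was 0.41 ± 0.12 (adjusted p 0.139 by edgeR and 0.0343 by DESeq2). P4hb, the founding protein disulfide isomerase and a subunit of prolyl 4-hydroxylase, was at 258, 248 and 265 CPM in cre+ and 205, 179, 215 and 215 CPM in cre-. It did not overlap either, and the log2 fold change of 0.34 ± 0.10 had an adjusted p of 0.134 by edgeR and 0.0216 by DESeq2.

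The remaining 3 overlapped between genotypes in each case through cre- replicate 1. Calreticulin (Calr) was at 399 CPM in that library and at 259 to 328 CPM in the other cre- libraries, against 366 to 417 CPM in cre+. Calnexin (Canx) was at 315 CPM there and at 218 to 244 CPM in the others, against 285 to 326 CPM in cre+. Pdia6, the isomerase P5 that attenuates Ire1, was at 131 CPM there and at 94.5 to 104 CPM in the others, against 127 to 132 CPM in cre+. Without that library the edgeR test gave an unadjusted p below 0.05 for all 3, and the number of members past that limit went from 12 to 19, while 10.3% of all genes were higher and 9.05% lower in that run.

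**Figure D2:**
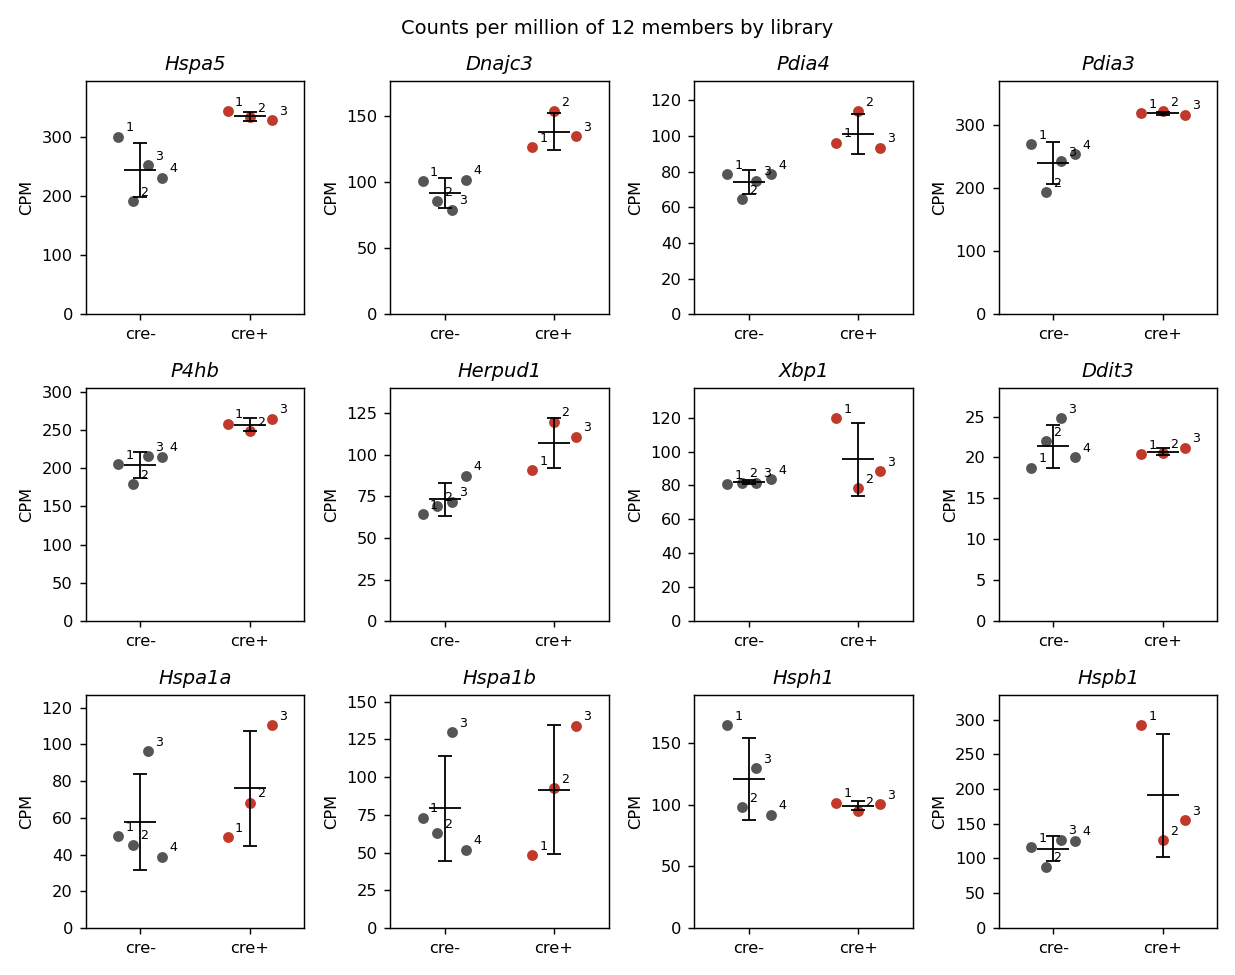
CPM (y axis, linear from 0) of 12 members in each library, grey for cre- and red for cre+, with replicate numbers, and the mean and SD as a bar. In the 6 panels from Hspa5 to Herpud1 the genotypes do not overlap, and in the other 6 they do, with single libraries such as cre+ replicate 1 for Xbp1 (119.7 CPM) and Hspb1 (292 CPM) far from the rest.

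Set against one another, the ER chaperones with and without the ER stress element shown above had similar values. The 7 that hold it had a median log2 fold change of 0.35 (0.25 to 0.59), and the 8 that do not had a median of 0.30 (0.20 to 0.45). As a description of counting, the 6 ER chaperones with no canonical exon base shared with another gene had a median of 0.26, and all 6 were positive.

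The sensors and factors of the UPR were less uniform than its chaperone targets, with a median of 0.22 and 6 of 7 positive values. Herpud1, an ER membrane protein of the degradation machinery and a target of several UPR branches, had the largest change. It was at 90.9, 119.9 and 111 CPM in cre+ and at 64.3, 69.1, 71.9 and 87.4 CPM in cre-, without overlap though cre- replicate 4 came near cre+ replicate 1. The log2 fold change was 0.55 ± 0.14, or 1.47-fold (adjusted p 0.0996 by edgeR and 0.0115 by DESeq2).

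Ern1, the kinase and endonuclease Ire1 that splices Xbp1, also did not overlap. It was at 38.97, 37.5 and 36.6 CPM in cre+ and 26.4, 30.9, 30.2 and 34.0 CPM in cre-, a log2 fold change of 0.31 ± 0.11 (adjusted p 0.178 by edgeR and 0.0846 by DESeq2). Atf6, the sensor that is cleaved to a transcription factor, was at 53.3, 69.0 and 64.5 CPM in cre+ and 61.5, 42.4, 52.4 and 53.8 CPM in cre-. Here cre+ replicate 1 lay within the range of the cre- libraries. Eif2ak3, the sensor Perk, was at 32.9 ± 2.14 CPM in cre+ and 30.3 ± 3.64 CPM in cre-, and its small positive change (0.12 ± 0.12) turned negative when libraries were scaled by their totals alone.

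Xbp1, the transcription factor whose spliced form is made by Ire1, rested on 1 library. It was at 119.7, 78.3 and 88.3 CPM in cre+ and at 80.8, 81.6, 81.7 and 83.6 CPM in cre-, so that the cre- libraries were nearly equal while cre+ replicate 2 lay below all of them and replicate 1 far above. Counts per gene do not separate the spliced form. For Atf4 and Ddit3, members of the Perk branch, the genotypes overlapped. Atf4, its transcription factor, was at 134, 119 and 134 CPM in cre+ and 121, 121, 124 and 128 CPM in cre-, a change of 0.06 ± 0.09 that also turned negative under scaling by totals. Ddit3, which encodes the factor Chop, was at 20.4, 20.5 and 21.2 CPM in cre+ and 18.8, 21.98, 24.8 and 20.04 CPM in cre-. The cre+ values lay inside the cre- range, and the log2 fold change was -0.05 ± 0.13 (adjusted p 0.877 by edgeR). The bases that Ddit3 shares with other gene entries add up to 28.9% of its exon bases, where a base shared with several entries is counted for each.

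**Figure D3:**
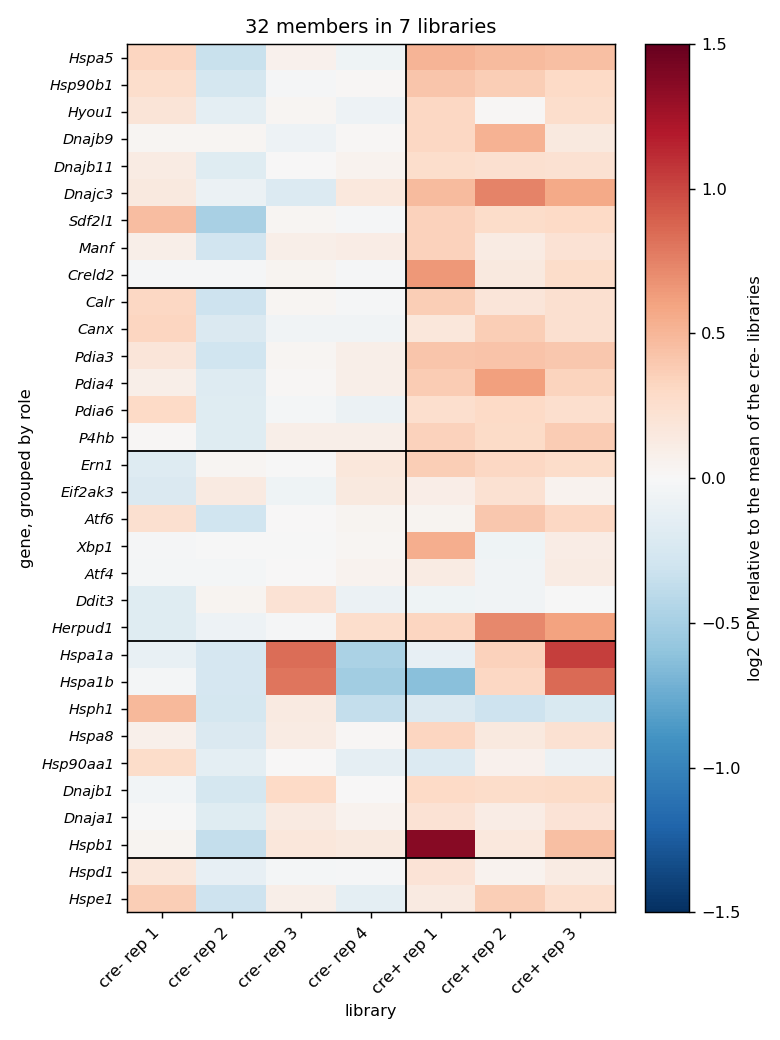
Log2 CPM of each member (rows, grouped by role with black lines) in each library (columns, cre- left and cre+ right of the line), relative to the mean of the 4 cre- libraries. The ER blocks at the top are mostly red across the 3 cre+ columns and mostly blue in cre- replicate 2, while Hspa1a and Hspa1b are highest in cre- replicate 3 and cre+ replicate 3.

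The cytosolic chaperones had about the same median as the UPR genes but a wider spread, from -0.29 to 0.74, and 1 of 8 did not overlap between genotypes, a share near the 8.94% of all tested genes. The inducible Hsp70 genes Hspa1a and Hspa1b, which heat and other proteotoxic stress switch on, varied most between libraries. Hspa1a was at 49.5, 68.3 and 111 CPM in cre+ and at 50.0, 45.3, 96.4 and 38.7 CPM in cre-. Hspa1b was at 48.1, 92.7 and 134 CPM in cre+ and at 73.1, 62.6, 129.6 and 51.9 CPM in cre-. In both genes replicate 3 of each genotype was the highest library, and the genotypes overlapped over most of their range.

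These are near-identical copies on chromosome 17, so reads may have been split between them. Their sum was 97.6, 161 and 244 CPM in cre+ and 123, 108, 226 and 90.6 CPM in cre-. Hspa1a held 40.6% (95% exact binomial interval 39.7 to 41.6%, counting error only) to 50.7% (49.6 to 51.8%) of that sum. Summed into 1 row they had a log2 fold change of 0.29 (adjusted p 0.717 by edgeR). Immediate early genes, which tissue dissociation is also known to induce, were highest in the same libraries within each genotype. The mean log2 level of the 16 genes, taken relative to the average of the cre- libraries, was -0.02, 0.10 and 1.17 in cre+ and -0.30, -0.01, 0.40 and -0.10 in cre-, and their part in the Hsp70 values was not tested.

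Hspb1, the small heat shock protein Hsp27 that is abundant in vessel walls, had the largest log2 fold change of all members, 0.74 ± 0.27 (adjusted p 0.191 by edgeR and 0.0625 by DESeq2). It was at 292, 127 and 155 CPM in cre+ and 116, 87.9, 127 and 125 CPM in cre-. The value of cre+ replicate 1 stood far above the others, cre+ replicate 2 lay at the level of the cre- libraries, and without cre+ replicate 1 the log2 fold change was 0.30. Dnajb1, the main J-domain partner of cytosolic Hsp70, was at 78.2, 76.5 and 77.3 CPM in cre+ and 61.7, 52.9, 77.8 and 63.4 CPM in cre-, and overlapped only through cre- replicate 3.

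The remaining cytosolic chaperones had small differences. Hspa8, the housekeeping Hsc70 that also uncoats synaptic clathrin vesicles, was at 1163, 1022 and 1089 CPM in cre+ and 977, 798, 1009.5 and 938 CPM in cre-. It was the single cytosolic member without overlap, by a small margin, with a log2 fold change of 0.23 ± 0.13 and an adjusted p of 0.352 by edgeR. Hsp90aa1, the inducible cytosolic Hsp90, was at 541 ± 49.4 CPM in cre+ and 574 ± 82.0 CPM in cre-. Hsph1, the Hsp110 that recharges Hsp70, had the lowest change (-0.29 ± 0.19), with 94.7 to 102 CPM in cre+ and cre- libraries on both sides, from 91.8 to 164 CPM. For Dnaja1, another Hsp70 cofactor, at 257 ± 9.93 and 228 ± 20.6 CPM, 85.3% of the exon bases are shared with Smu1 on the opposite strand, so its count may hold reads of that gene.

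The mitochondrial chaperonin subunits, transcribed from the shared promoter shown above, overlapped between genotypes. Hspd1, the ring subunit Hsp60, was at 134, 122 and 127 CPM in cre+ and at 132, 107, 114 and 115 CPM in cre-. Hspe1, its lid Hsp10, was at 36.8, 43.5 and 40.1 CPM in cre+ and at 43.3, 27.1, 35.8 and 30.5 CPM in cre-. In both genes cre- replicate 1 lay inside the cre+ range and cre- replicate 2 was the lowest, and the log2 fold changes were 0.13 ± 0.10 and 0.23 ± 0.16.

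Taken per library, the ER chaperones and the UPR genes separated the genotypes and the cytosolic chaperones did not. The mean log2 level of the 7 UPR genes, relative to the average of the cre- libraries, was 0.20, 0.21 and 0.21 in cre+. In cre- it was -0.08, -0.03, 0.02 and 0.09. The list of 27 other ER folding enzymes described below separated them too, at 0.23, 0.34 and 0.31 in cre+ and 0.06, -0.09, -0.04 and 0.06 in cre-. The mean log2 level of the 15 ER chaperones, taken relative to the average of the cre- libraries, was 0.37, 0.34 and 0.31 in cre+ and 0.19, -0.21, 0.00 and 0.02 in cre-. For the 8 cytosolic chaperones it was 0.13, 0.14 and 0.34 in cre+ and 0.09, -0.24, 0.31 and -0.16 in cre-. The ER and the cytosolic chaperones were both lowest in cre- replicate 2. The difference between these groups within a library, ER minus cytosolic, was 0.24, 0.20 and -0.04 in cre+ and 0.10, 0.03, -0.31 and 0.18 in cre-. These values overlap, so a larger change of the ER chaperones than of the cytosolic ones was not resolved at this number of mice.

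The levels between genes can be compared per kilobase of the canonical transcript. On that scale Hspa8 was the most abundant member, with a mean of 417 CPM per kilobase over the 7 libraries. It was followed by Hspb1 (161), Hsp90aa1 (159), Calr (154) and Hsp90b1 (142). The place of Hspb1 differed by genotype, with a mean of 209 in cre+ and 125 in cre-. In cre- it was below Hsp90aa1 (162), Calr (143) and Hsp90b1 (127). The rarest were the 3 sensors, Ern1 at 4.79, Eif2ak3 at 6.89 and Atf6 at 7.52 CPM per kilobase, so that the genes that start the UPR were below every one of its targets among the members.

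**Figure D4:**
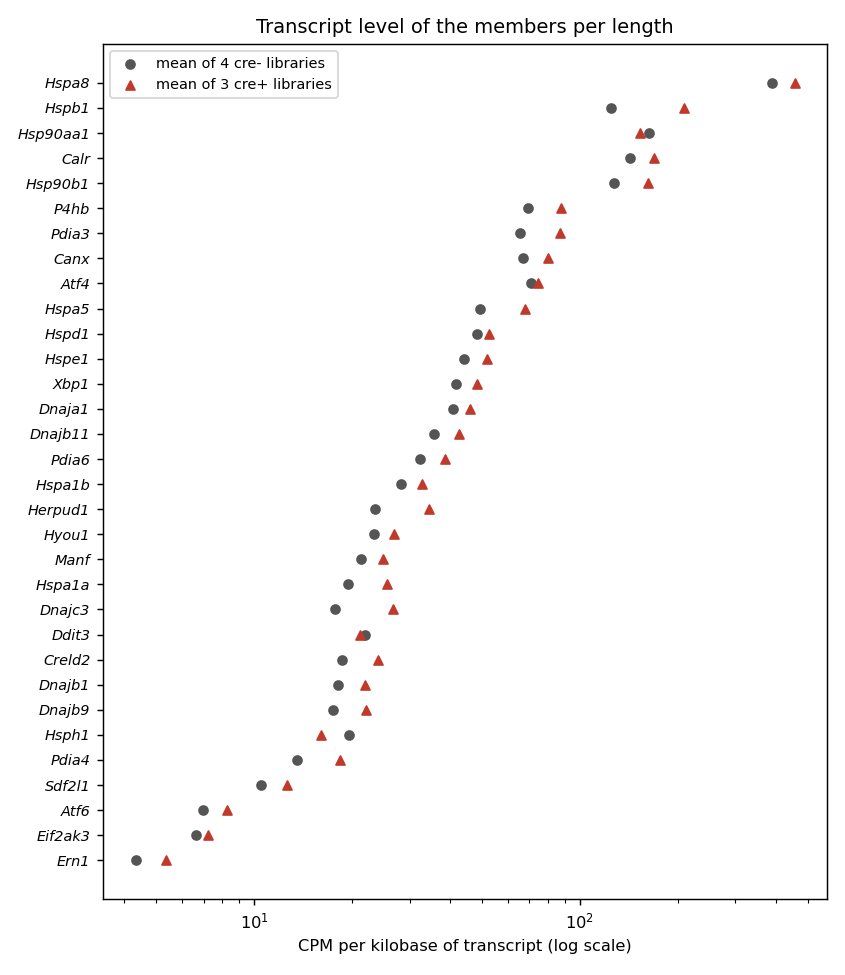
Mean CPM per kilobase of canonical transcript (x axis, log scale) of each member, ordered by level, with a grey circle for the mean of the 4 cre- and a red triangle for the mean of the 3 cre+ libraries. The triangle lies to the right of the circle in all but Hsp90aa1, Ddit3 and Hsph1, and the sensors Ern1, Eif2ak3 and Atf6 are at the bottom.

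Other genes of these pathways were taken as 9 lists, in which edgeR called 0 genes and DESeq2 called 19 higher and 0 lower. The DESeq2 counts below stand beside the 6.7% of all genes called higher, and those for ER-associated degradation, translocation and other cytosolic genes are near or below that share. Among 27 other ER folding enzymes 25 had positive log2 fold changes, with a median of 0.28, and DESeq2 called 5 higher. The prolyl isomerases Fkbp9 and Fkbp10 had changes of 0.64 ± 0.13 and 0.97 ± 0.25, the calcium-binding Calu 0.40 ± 0.10 and the disulfide reductase Dnajc10 0.46 ± 0.13, with DESeq2 adjusted p of 0.00212, 0.00889, 0.00698 and 0.0377. All 4 did not overlap between genotypes. Fkbp9, for example, was at 143, 146 and 147 CPM in cre+ and 99.8, 78.2, 83.9 and 112 CPM in cre-.

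ER-associated degradation, which returns misfolded proteins to the cytosol, was nearer to 0, with a median of 0.09 over 22 genes and 2 called by DESeq2. Among them was Edem3, which trims mannose from misfolded glycoproteins (0.32 ± 0.08, adjusted p 0.00642). Derl1 and Nploc4 were at 0.28 ± 0.10 and 0.21 ± 0.09 and were not called. In translocation and N-glycosylation 24 of 27 genes were positive, with a median of 0.22, and DESeq2 called Uggt1 alone. This gene, the folding sensor that sends glycoproteins back to calnexin, changed by 0.29 ± 0.08 (adjusted p 0.0153), beside uncalled values of 0.30 for Rpn2, 0.30 for Sec61a1 and 0.29 for Srprb.

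The integrated stress response, the branch of Perk and Atf4, had a median of 0.25 over the 25 of 27 listed genes found, with 17 positive, and DESeq2 called 3. These were the amino acid transporter subunits Slc7a5 (0.79 ± 0.18, adjusted p 0.00144) and Slc3a2 (0.58 ± 0.14, adjusted p 0.00438) and the serine synthesis enzyme Phgdh (0.44 ± 0.14, adjusted p 0.0447). Slc7a5 was at 2138, 1792 and 1723 CPM in cre+ and 888, 1071, 984 and 1413 CPM in cre-. Both transporter subunits are also known as abundant products of brain endothelial cells. Ppp1r15b, the constitutive phosphatase subunit of the pathway, was at 0.30 ± 0.10 and was not called.

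In the cytosol the medians were 0.09 for 38 other Hsp70, Hsp90 and Hsp40 genes, cochaperones and heat shock factors, and 0.04 for 14 genes of the CCT chaperonin and prefoldin. DESeq2 called 3 genes of the first list and 0 of the second, where the lowest unadjusted p belonged to Pfdn5 (0.27 ± 0.12). The 3 were the autophagy cochaperone Bag3 (0.75 ± 0.15, adjusted p 0.00167), the Hsp70 relative Hspa12b, which is found in endothelium (0.63 ± 0.19, adjusted p 0.0254), and Serpinh1 (0.82 ± 0.18, adjusted p 0.00285). Serpinh1 was listed there as Hsp47 and is a collagen chaperone of the ER, so it does not do what the name of the list says. St13, an Hsp70 cochaperone, was at 0.32 ± 0.11 and was not called.

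Of 8 small heat shock protein genes 7 could be tested, and their median was 0.49. Of these 5 were positive and 2 negative, the lowest at -1.10. The mean log2 level of the list overlapped between genotypes, at 0.11, -0.46 and 0.38 in cre+ and 0.17, -0.05, 0.02 and -0.14 in cre-. Hspb8, the partner of Bag3, was called by DESeq2 (0.89 ± 0.15, adjusted p 0.000117), with 87.0, 87.2 and 66.6 CPM in cre+ and 45.5, 35.8, 41.4 and 51.0 CPM in cre-. Cryab (0.62 ± 0.21), Hspb2 (0.79 ± 0.32) and Hspb6 (0.49 ± 0.23) were not. The 15 other mitochondrial chaperones and proteases had a median of 0.08 and 0 calls, with values of 0.34 ± 0.12 for Grpel1 and -0.26 ± 0.11 for Timm44. The 16 immediate early genes had a median of 0.59, and DESeq2 called Klf6 (0.57 ± 0.17), Dusp1 (1.01 ± 0.31), Ier2 (0.61 ± 0.19) and Btg2 (0.85 ± 0.30).

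Markers of the cells in the isolates moved with genotype as well. All 20 neuron markers had a negative log2 fold change, with a median of -0.75, and DESeq2 called 8 of them lower, among them Nefh (-0.87 ± 0.16) and Elavl3 (-0.56 ± 0.17). All 20 endothelial markers were positive, with a median of 0.64, and 15 were called higher, among them Slc2a1 (1.003 ± 0.20) and Abcb1a (0.85 ± 0.18). Of 14 mural cell markers 13 were positive, with a median of 0.71 and 7 called higher, among them Rgs5 (0.91 ± 0.13) and Vtn (1.26 ± 0.17). No marker of these lists was at 0 in all libraries. The summed level of the endothelial markers was 19534 to 28217 CPM in cre+ and 13099 to 18141 CPM in cre-, that of the mural markers 641 to 906 and 428 to 607 CPM, and that of the neuron markers 1821 to 3610.2 and 3466 to 5837 CPM. In every library the endothelial markers thus summed to more than the neuron markers. In these bulk samples fewer cells of a type and less RNA per cell cannot be told apart, and the chaperones are expressed in all of these cells.

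Lists of other classes also had medians away from 0, at 0.97 for meningeal fibroblasts, 0.85 for astrocytes, 0.48 for oligodendrocytes, 0.41 for microglia, 0.93 for ependymal cells, 0.80 for choroid plexus and -0.56 for blood. DESeq2 called 4, 4, 3, 0, 1, 0 and 0 of their genes, and the part of these classes in the members' values was not tested. With the mean endothelial and mural level as a covariate, the median of the ER chaperones was 0.26 in place of 0.33, with 14 of 15 positive, the exception being Hyou1, and that of the ER Hsp70 and Hsp90 system was 0.22. Of the members 4 (Dnajb9, Dnajc3, Pdia4 and Herpud1) had an unadjusted p below 0.05 and a higher level, beside 2.62% of all genes, and the lowest adjusted p of any member by edgeR was 0.879. Hspb1 went from 0.74 to -0.07 and Xbp1 from 0.22 to -0.25 in that fit. The mean log2 level of the endothelial markers itself separated the genotypes, at 0.42 to 0.98 in cre+ and -0.13 to 0.35 in cre-. That of the mural markers overlapped between genotypes, at 0.52, 0.22 and 1.18 in cre+ and 0.45, 0.30, -0.29 and -0.46 in cre-. Since it takes in the endothelial markers, the covariate overlaps largely with genotype, and this fit cannot tell the 2 apart in 7 libraries.

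**Figure D5:**
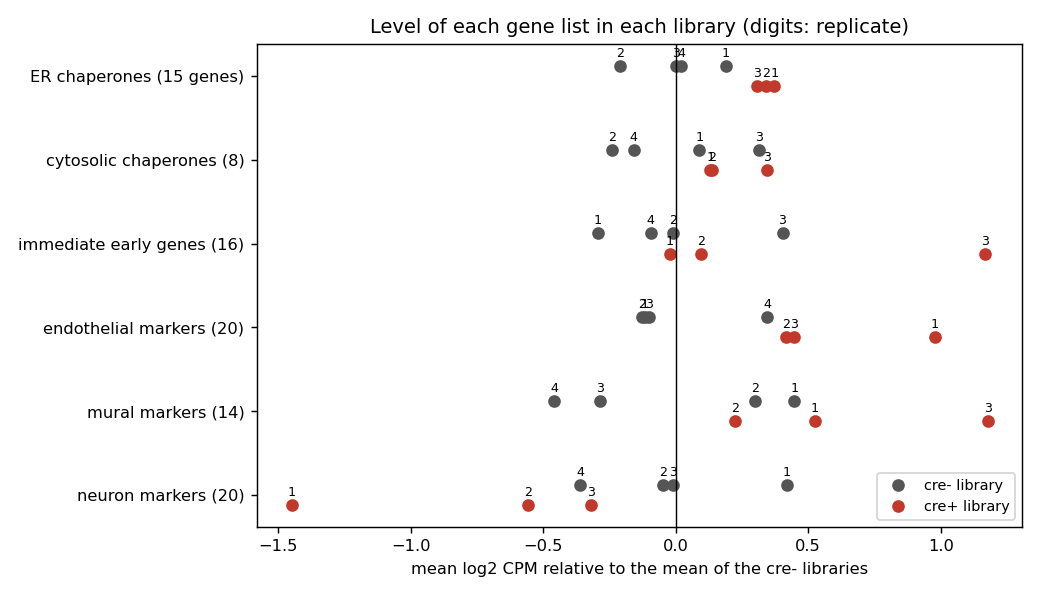
Mean log2 CPM of 6 gene lists in each library (x axis, relative to the mean of the cre- libraries), grey for cre- and red for cre+, with replicate numbers. The ER chaperones do not overlap between genotypes (0.31 to 0.37 in cre+), the cytosolic chaperones do, endothelial markers are at 0.42 to 0.98 in cre+, and neuron markers are lowest in cre+ replicate 1 (-1.45).

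The library with the lowest neuron markers and the highest endothelial markers was cre+ replicate 1. Without it the ER chaperones had a median of 0.29 with 15 of 15 positive, and 7 members instead of 12 had an unadjusted p below 0.05 and a higher level, beside 7.57% of all genes. Without cre+ replicate 3, the library highest in immediate early genes, the median was 0.32 for the ER chaperones and 0.10 for the cytosolic ones. Without cre- replicate 3, the cre- library highest in them, it was 0.30 and 0.33. The targeted gene, Il4ra, was at 29.5, 28.7 and 24.4 CPM in cre+ and at 20.03, 23.2, 29.6 and 22.4 CPM in cre-. Its count covers the whole gene and not the floxed exons alone, so it does not check the deletion.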

How the data were processed

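RNA of neurons isolated from 3 cre+ and 4 cre- mouse brains was sequenced. As the methods and the submitters' processing notes state, the authors used fastp for trimming, STAR for alignment to GRCm39, StringTie for counting and DESeq2 for testing. Versions, annotation and strand setting are not given in the sources used. The authors deposited raw gene counts in whole numbers (46382 rows, of which 49 repeats were dropped). The deposited normalized values, which are the counts divided by 1 factor per library, were not used.

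Genotype was tested in all 7 libraries with edgeR 4.0.16 under R 4.3.3 (quasi-likelihood F-test, TMM factors, filterByExpr, robust, no covariate), with p-values adjusted by Benjamini-Hochberg over 21542 genes and called below 0.05. CPM use TMM factors, and relative log2 levels use a prior count of 2. DESeq2 1.42.0 on 29539 genes and limma-voom (limma 3.58.1) were alternatives, as were other scalings, filters, a replicate term, a covariate and leaving out each library. Leaving out libraries with DESeq2 was added after the data were seen. Replicates are separate littermates per the study, so p-values measure the spread between mice. The column headers of the cre+ and cre- files carry codes whose letters the genotypes do not share. Their meaning is not given, and a batch they might mark cannot be told apart from genotype.

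The members and the lists were chosen with earlier results of these data known. Values in every library are given for members that edgeR or DESeq2 called, the 3 with the smallest edgeR p in each role group, and Hspa5, Xbp1, Ddit3, Hspa1a, Hspa1b and Hspa8. Each pathway list names up to 4 genes with the smallest p (only the first 1 or 2 where 0 were called), and each of the 3 main marker lists names 2. 1 gene that this rule would name is not reported here. Of the listed genes, Aars1 and Wars1 were not found under these names. Of the Ensembl identifiers in the files, 99.4% were found in GENCODE M39, which gave transcript lengths and overlaps, and sequences were read from the GRCm39 genome. Overlaps were taken between exons of the canonical transcript of each gene only.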

Additional observations from a re-analysis of the deposited data

Results flagged for a closer look

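In 3 members 1 cre- library stood apart from the other 3 by Dixon's criterion for 4 values, under which the gap to the nearest value is over 0.829 of the whole range. Dnajb9 was at 40.8 CPM in cre- replicate 3, below the others, with a gap of 0.852 of the range. Manf was at 39.02 CPM in cre- replicate 2, also below the others, with a gap of 0.928. Creld2 was at 26.9 CPM in cre- replicate 3, above the others, with a gap of 0.961. The criterion was applied to 34 sets of 4 cre- values and is met by chance in about 1 in 20, and in Dnajb9 and Creld2 the whole cre- range was a few CPM.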

How the results depend on the processing

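DESeq2 called 1095 genes higher and 895 lower in place of 0, and with them 6 members and 19 genes of the pathway lists higher. It gave the 6 called members log2 fold changes of 0.47 for Hspa5, 0.60 for Dnajc3, 0.42 for Pdia3, 0.45 for Pdia4, 0.34 for P4hb and 0.56 for Herpud1. Leaving out each library in turn, edgeR called 0 to 3 genes higher and 0 to 2 lower, both maxima being without cre+ replicate 1, and 0 members in any run. The median of the UPR genes ran from 0.13, without cre+ replicate 1, to 0.23. Hspa1b ran from -0.171 without cre+ replicate 3 to 0.549 without cre- replicate 3, and Ddit3 from -0.102 without cre- replicate 1 to 0.0289 without cre- replicate 3. With the endothelial and mural covariate the UPR median was 0.29, and Xbp1 (-0.25), Ddit3 (0.16), Hspb1 (-0.065) and Hspd1 (-0.0668) changed sign. Hyou1, Atf4 and Hsp90aa1 changed sign in that fit too. The cause was not tested. Scaling by library totals moved the median of all genes by -0.12, to -0.16, and the UPR median to 0.10. All 15 ER chaperones then stayed above the median of all genes, and the split of unadjusted calls over all genes went from 2205 higher and 2100 lower to 1184 and 3399. Of 436 comparisons with alternatives, 415 stayed the same. They covered group medians, counts of calls and only the members selected by the rule given above. A member stayed the same if it kept its direction and its side of the threshold, and a count if it kept its value. A group median stayed the same if it shifted by less than the SD of the group between libraries within genotypes. Other members were not counted, and of these Eif2ak3 and Atf4 turned negative under scaling by totals.

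Deviations from the genotype mean correlated at -0.03, -0.00 and 0.09 between libraries with the same replicate number. Between libraries with different numbers they correlated at -0.11 to 0.16. With 3 and 4 libraries this check cannot tell whether the numbers pair the mice. With the replicate block edgeR again called 0 members, and the median of the ER Hsp70 and Hsp90 system was 0.33 and that of the cytosolic chaperones 0.22. The standard errors of the log2 fold changes of single members ran from 0.09 to 0.39 with 3 against 4 mice, and a p above the threshold does not show equal levels.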
